A study of Mus musculus with 9 samples.

Results

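The genes described here are 40 members of the integrated stress response and of the amino acid programme it controls: 8 regulators, 6 serine and one-carbon enzymes, 3 asparagine and proline enzymes, 8 amino acid transporters, 11 cytosolic tRNA ligases and 4 other targets of the transcription factor ATF4. They were taken from a fixed list of symbols, and all 40 were found by symbol among the 52550 genes of the deposited count table. All 40 also passed the filter on low counts, which left 13255 genes for the tests.

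The 9 libraries come from micromass cultures, in which dissociated cells are plated as dense drops that form cartilage nodules. The cells came from the forelimbs of mice at embryonic day 12 and are labelled as chondroblasts. The sources used here give neither their strain nor their genotype. The DMSO group comprised 3 cultures that received the vehicle alone. The FMK group comprised 3 cultures given 100 µM Z-VAD-FMK, and the OPH group 3 cultures given 100 µM Q-VD-OPH, both inhibitors of caspases, the proteases that carry out apoptosis. Treatment lasted 6 days in all 3 groups. The labels call the cultures biological replicates and do not say whether they came from separate litters, so p-values measure the spread between these cultures only.

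The integrated stress response begins with 4 kinases, PERK, GCN2, PKR and HRI, which sense protein folding stress, uncharged tRNA, double-stranded RNA, and haem shortage or mitochondrial stress. Each phosphorylates the translation factor eIF2alpha, which lowers protein synthesis in general while the mRNA of Atf4 is translated more. ATF4 then switches on genes for amino acid import, tRNA charging, serine and asparagine synthesis and one-carbon metabolism, together with further regulators such as CHOP, ATF3, TRIB3 and GADD34, some of which limit the response. Cartilage cells secrete large amounts of collagen, and the PERK and ATF4 arm is known for its part in their differentiation. ATF4 activity is set largely by translation, which was not measured in these data, so the values below are mRNA levels only.

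The libraries held 5659789 to 6867350 counts, and the members had between 42 and 6946 counts in a library. Levels are given as CPM, the counts of a gene with each scaled library set to a total of 1000000, and each count stands for the 3′ end of a transcript. All 10 cartilage markers, the defining genes of the labelled cells, passed the filter, and their summed level was 2067 to 3287 CPM with DMSO, 1053 to 1130 CPM with FMK and 1026 to 1925 CPM with OPH. With FMK 8 of them fell, and with OPH 4. The 12 macrophage markers all fell with both inhibitors, from a sum of 941 to 1836 CPM with DMSO to 23.6 to 29.5 CPM with FMK and 164 to 196 CPM with OPH. In bulk RNA, fewer cells of a type and less RNA per cell cannot be told apart. The 14 interferon response genes all rose, from a sum of 185 to 359.95 CPM with DMSO to 9458 to 12351 CPM with FMK and 8526 to 9263 CPM with OPH. The libraries numbered 3 stood apart from the others of their group: the 8 adipocyte markers summed to 480.2 CPM in DMSO 3 against 2322 and 2054 CPM in DMSO 1 and 2, and to 726 CPM in OPH 3 against 2297 and 2778 CPM in OPH 1 and 2, while with FMK they summed to 113 to 200.2 CPM and Cidec was at 0. The 9 skeletal muscle markers, of which 8 were tested and Ckm was at 0 in all FMK and OPH libraries, ran the other way, with sums of 403, 285 and 348 CPM in the libraries numbered 3 and of 79.4 to 172 CPM in the other 6. Of the 6 endothelial markers, 2 passed the filter, and the list never summed to more than 5.39 CPM. Whether these shifts in cell makeup play a part in the members' levels was not tested.

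Against DMSO, FMK raised 9 of the 40 members and lowered 5, where 10.4% of all genes tested rose and 10.1% fell. OPH raised 17 members and lowered 1, where 8.6% of all genes rose and 8.11% fell. Both comparisons use the same 3 DMSO libraries. OPH was above FMK for 10 members and below it for 1, where 4.2% of all genes tested were above and 4.66% below. A member is said to rise or fall where its adjusted p is under 0.05 in edgeR's quasi-likelihood test, with Benjamini-Hochberg adjustment over all genes tested. The median log2 fold change of the members was 0.13 with FMK, 0.32 with OPH and 0.27 for OPH over FMK, while that of all genes lay between -0.01 and 0.01. In all, 24 members passed in at least 1 comparison and 16 in none, and the matching share of all genes was not counted. The regulators held the largest changes, with Atf3, Ddit3 and Cebpb more than doubled by FMK and Atf3, Ddit3, Trib3 and Ppp1r15a more than doubled by OPH.

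**Figure D1:**
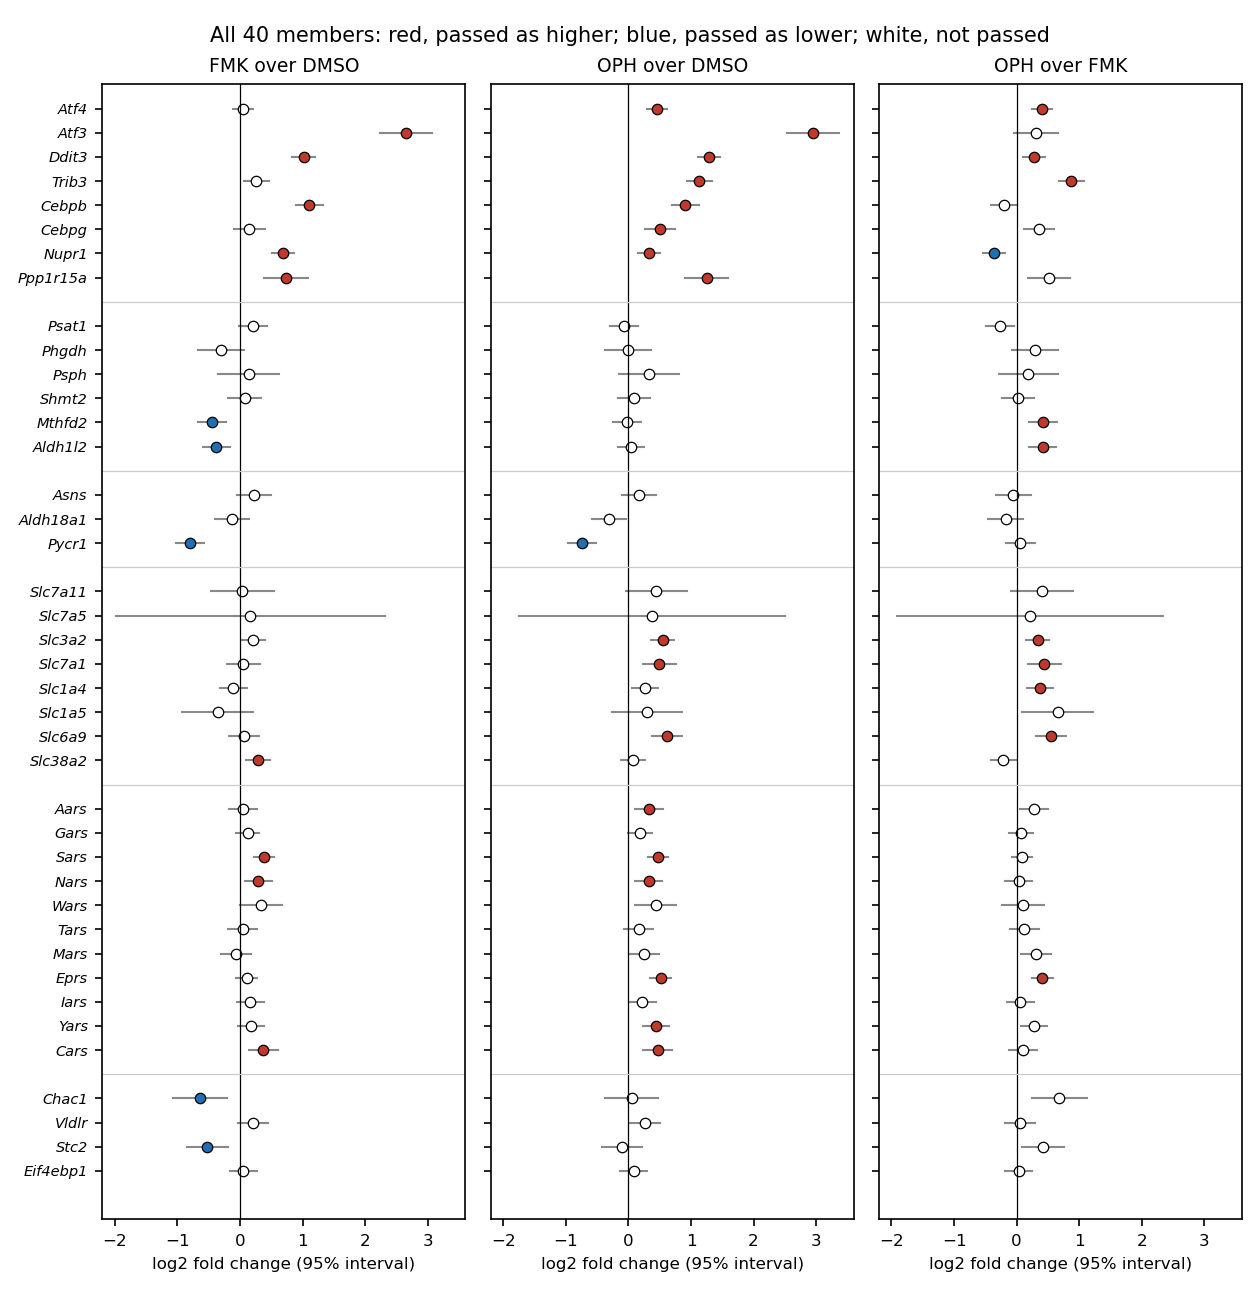
Log2 fold change of each of the 40 members (points) with its 95% interval (lines) for FMK over DMSO, OPH over DMSO and OPH over FMK, in blocks by role from the regulators at the top to the other ATF4 targets at the bottom; red points passed as higher, blue as lower and white points did not pass. All 8 regulators lie to the right of 0 with either inhibitor, and 5 of them passed with FMK and 8 with OPH. With FMK the 5 blue points are Mthfd2, Aldh1l2, Pycr1, Chac1 and Stc2.

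The scaling between libraries bears on these counts, because library size alone, with no scaling factors, moved the median of all genes to -0.11 for FMK over DMSO and to 0.12 for OPH over FMK. Under that scaling FMK raised 6 members and still lowered 5, with 1012 genes higher and 1933 lower in all against 1381 and 1341 in the scaled test. OPH was then above FMK for 17 members and below it for 0, with 1103 genes higher and 385 lower in all against 557 and 618. With the replicate number as a block, OPH was above FMK for 15 members and below it for 2, where 7.78% of all genes were above and 8.36% below. From the libraries numbered 1 and 2 alone, FMK raised 8 members and lowered 5, OPH raised 17 and lowered 2, and OPH was above FMK for 13 and below it for 1. Of the 13415 genes tested in that run, 1294 rose and 1291 fell with FMK, and 948 rose and 923 fell with OPH. For OPH over FMK, 644 were above and 682 below. Leaving out 1 library lowered the 5 members that fell with FMK to 3 (DMSO 1 or FMK 1) or 2 (DMSO 3 or FMK 2). It raised the 1 that fell with OPH to 2 (OPH 3), and left 0 below FMK with OPH (FMK 2 or OPH 3). Over all genes, those that fell with FMK went from 1341 to 960 (DMSO 1), 1029 (FMK 1), 1185 (DMSO 3) and 938 (FMK 2). Those that fell with OPH went from 1075 to 846 (OPH 3). Those below FMK with OPH went from 618 to 386 (FMK 2) and 409 (OPH 3).

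Atf4 itself, the transcription factor at the centre of the response, rose with OPH and not with FMK. Its level was 713, 662 and 744 CPM in the DMSO libraries, 698, 699.6 and 802 CPM with FMK, and 933, 985 and 999 CPM with OPH. The 3 OPH libraries lay above the other 6, and the FMK and DMSO libraries overlapped. The log2 fold change was 0.46 ± 0.08 (SE, 3 cultures a group) for OPH over DMSO, with an adjusted p of 0.000369 (edgeR). FMK over DMSO gave 0.05 ± 0.08, with a 95% interval of -0.11 to 0.21. The difference between the inhibitors passed, at 0.41 ± 0.08 for OPH over FMK (adjusted p 0.00272).

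Atf3, a transcription factor of the same bZIP family that is induced downstream of ATF4 and by several other stresses, had the largest change among the members. It went from 6.98, 11.7 and 6.09 CPM with DMSO to 54.1, 56.3 and 44.2 CPM with FMK and to 66.0, 68.1 and 57.6 CPM with OPH. Both treated groups were far above DMSO, and the lowest OPH library was above the highest FMK library. The rise was 6.26-fold with FMK (log2 2.65 ± 0.20, adjusted p 5.23e-08) and 7.75-fold with OPH (2.96 ± 0.20, adjusted p 1.96e-08). OPH over FMK was 0.31 ± 0.17 with an interval of -0.05 to 0.66 and did not pass.

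Ddit3 encodes CHOP, a transcription factor tied to prolonged stress and cell death. Its levels were 155, 155 and 145 CPM with DMSO, 282, 319 and 319.7 CPM with FMK, and 342, 393 and 378 CPM with OPH. The 3 groups did not overlap, and their order was DMSO, FMK, OPH. Ddit3 rose 2.02-fold with FMK (log2 1.02 ± 0.08, adjusted p 8.88e-08) and 2.45-fold with OPH (1.29 ± 0.08, adjusted p 5.68e-09). OPH was above FMK by 0.27 ± 0.08 (adjusted p 0.0466), a call that was lost, at adjusted p of 0.0597 to 0.199, without any 1 of DMSO 1, DMSO 2, FMK 1, FMK 2, OPH 2 and OPH 3. The 3′ end of Ddit3 (GRCm38 chr10:127290774-127296288, plus strand) overlaps that of Mars (chr10:127296221-127311786, minus strand), and since the use of strand in counting is not given, their reads may not be fully separated.

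Trib3 encodes a pseudokinase that binds ATF4 and dampens its activity. It had 117, 109.9 and 103 CPM with DMSO, 125, 121 and 149.7 CPM with FMK, and 230.1, 254 and 240.1 CPM with OPH. All 3 OPH libraries were far above the rest, and the FMK libraries lay just above DMSO without overlap. Trib3 rose 2.19-fold with OPH (log2 1.13 ± 0.10, adjusted p 1.85e-07) and was 1.83-fold higher with OPH than with FMK (0.87 ± 0.10, adjusted p 2.69e-05). FMK over DMSO was 0.26 ± 0.10 with an adjusted p of 0.0666, and it passed at 0.0352 with the replicate number as a block.

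Ppp1r15a encodes GADD34, which brings a phosphatase to eIF2alpha and so closes the feedback loop. It went from 30.9, 26.2 and 38.4 CPM with DMSO to 44.3, 66.7 and 47.9 CPM with FMK and 69.7, 75.9 and 82.6 CPM with OPH. The 3 groups did not overlap. Ppp1r15a rose by 0.73 ± 0.17 on the log2 scale with FMK (adjusted p 0.00465) and by 1.25 ± 0.16 with OPH (adjusted p 6.55e-05). OPH over FMK was 0.52 ± 0.16 with an interval of 0.18 to 0.86 and an adjusted p of 0.0534, and it passed at 0.0102 with the block.

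Cebpb, a bZIP partner of ATF4 that also acts in inflammation and fat cell formation, rose with both inhibitors. Its levels were 56.7, 62.1 and 62.2 CPM with DMSO, 133, 135 and 123 CPM with FMK, and 118, 123 and 99.6 CPM with OPH. Both treated groups lay above DMSO. Cebpb overlaps the antisense gene Tmem189, which had 2021 counts in all against 5863. The log2 fold change was 1.11 ± 0.10 with FMK (adjusted p 2.58e-07) and 0.91 ± 0.10 with OPH (adjusted p 4.72e-06). OPH over FMK was -0.20 ± 0.10 with an interval of -0.40 to 0.01, and it did not pass.

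Cebpg, another bZIP partner of ATF4, passed with OPH and not with FMK. Its levels were 85.8, 89.8 and 77.7 CPM with DMSO, 87.5, 113 and 80.6 CPM with FMK, and 121, 125 and 114 CPM with OPH. The OPH libraries lay above all others, and FMK 2 stood above the other FMK libraries. OPH over DMSO was 0.51 ± 0.11 (adjusted p 0.00512) and FMK over DMSO 0.15 ± 0.12 (adjusted p 0.417). OPH over FMK was 0.36 ± 0.11 with an adjusted p of 0.0612, which passed at 0.00586 with the block and at 0.0136 without FMK 2.

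Nupr1, a small stress-induced nuclear protein, was the 1 member that passed as lower with OPH than with FMK. It had 112, 102 and 104 CPM with DMSO, 162, 176 and 172 CPM with FMK, and 134, 136 and 128 CPM with OPH. The 3 groups did not overlap. Nupr1 rose by 0.68 ± 0.08 on the log2 scale with FMK (adjusted p 1.08e-05) and by 0.33 ± 0.08 with OPH (adjusted p 0.0126), and OPH over FMK was -0.36 ± 0.08 (adjusted p 0.0126). The OPH rise was lost without DMSO 2 (0.0543) or OPH 2 (0.0526). The difference between inhibitors was lost without FMK 2 (0.0555) or OPH 3 (0.0540), and at 0.0661 with library size alone.

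**Figure D2:**
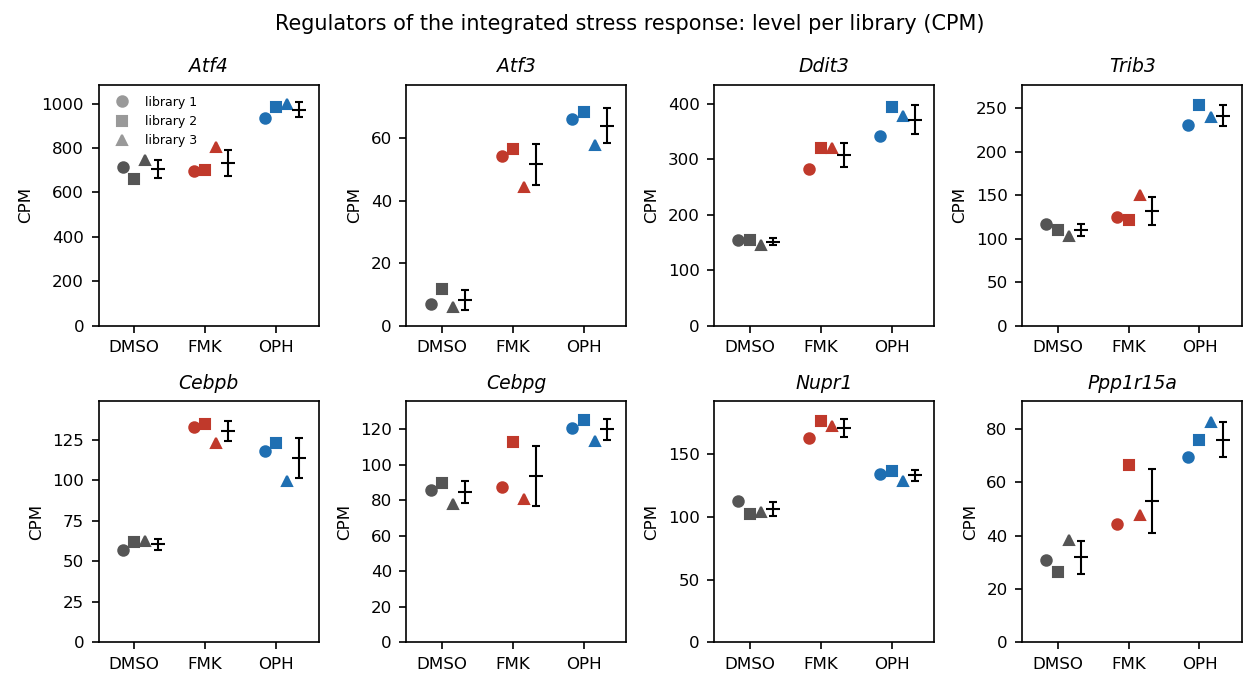
CPM of the 8 regulators in each library (circle, square and triangle for libraries 1, 2 and 3) with the group mean and SD beside the points, for DMSO, FMK and OPH. Atf4 and Trib3 are high in OPH alone, at 933 to 999 CPM and 230.1 to 254 CPM, whereas Atf3, Ddit3 and Cebpb are high in both treated groups.

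Upstream of these regulators, the 4 eIF2alpha kinases did not move together. Eif2ak2 encodes PKR, the kinase activated by double-stranded RNA, which is itself interferon inducible. Its levels were 41.0, 35.6 and 34.8 CPM with DMSO, 189, 187 and 166 CPM with FMK, and 184, 159.7 and 162 CPM with OPH. Eif2ak2 rose by 2.28 ± 0.10 with FMK (adjusted p 2.47e-11) and by 2.18 ± 0.10 with OPH (adjusted p 7.11e-11), in the same libraries in which all 14 interferon response genes rose. Eif2ak3 encodes PERK, the kinase of the endoplasmic reticulum, and went from 35.4, 31.5 and 31.5 CPM with DMSO to 25.9, 18.9 and 20.9 CPM with FMK and 28.3, 23.1 and 23.5 CPM with OPH. Eif2ak3 fell by 0.58 ± 0.16 on the log2 scale with FMK (adjusted p 0.0130), which was lost without DMSO 1 (0.0613) or FMK 2 (0.0764). With OPH its log2 fold change was -0.39 ± 0.15 (adjusted p 0.0977), which passed at 0.0428 with the block. Eif2ak1 (HRI) and Eif2ak4 (GCN2) passed in no comparison, with log2 fold changes of -0.13 and -0.05 for FMK and of -0.05 and -0.10 for OPH.

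Of the other genes of eIF2alpha control, the list of 18 with the kinases held 17 tested genes. Of these, 3 rose and 3 fell with FMK, 3 rose and 1 fell with OPH, and 2 were higher with OPH than with FMK. Among all genes tested, 10.4% rose and 10.1% fell with FMK, 8.6% rose and 8.11% fell with OPH, and 4.2% were higher with OPH than with FMK. Dnajc3, an inhibitor of PERK and PKR and a chaperone, fell with both inhibitors, by 0.31 ± 0.09 (adjusted p 0.0178) and 0.45 ± 0.09 (adjusted p 0.00184) on the log2 scale. The FMK call for Dnajc3 was lost without DMSO 1 (0.0795), DMSO 2 (0.0501), FMK 1 (0.0675) or FMK 2 (0.0802). Impact, which holds GCN2 in check, had 42.7, 46.0 and 30.5 CPM with DMSO, 37.0, 32.5 and 42.0 CPM with FMK and 68.4, 56.5 and 51.9 CPM with OPH. Impact rose with OPH by 0.57 ± 0.16 (adjusted p 0.0181) and was above FMK by 0.67 ± 0.16 (adjusted p 0.0140). The OPH rise of Impact was lost without DMSO 3 (0.0830) or OPH 1 (0.101), and its difference from FMK without FMK 1 (0.0555), FMK 2 (0.0767) or OPH 1 (0.0762). Ppp1r15b, the constitutive counterpart of GADD34, was higher with OPH than with FMK by 0.41 ± 0.10 (adjusted p 0.0182), a call lost without FMK 1 (0.0989), FMK 2 (0.0892) or OPH 2 (0.105). The remaining calls, chosen after their values were seen because they are few, were Eif2s2 (higher with FMK at 0.24 and with OPH at 0.32), Eif2b2 (higher with FMK at 0.49) and Eif2b1 (lower with FMK at -0.38), which encode subunits of eIF2 and of its exchange factor. The FMK call for Eif2s2 was lost on leaving out any 1 library except DMSO 2 and FMK 1, at 0.0571 to 0.194, and its OPH call without DMSO 1 (0.0542) or OPH 3 (0.0582). Eif2b2 was lost without DMSO 1 (0.0913), DMSO 2 (0.0547) or FMK 3 (0.0893), and Eif2b1 without any 1 DMSO or FMK library, at 0.0611 to 0.120.

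The sites through which ATF4 acts were looked for in the promoters of the members. ATF4 binds with C/EBP proteins to the C/EBP-ATF response element. A single form of its core, TGATGNAAT, was searched on both strands in the RefSeq promoter table (GRCm38.p6). Each window ran from 250 bases before to 50 bases after a start site. Forms that end in another letter were not counted, such as TGATGAAAC in the window of Asns. Of the 40 members, 33 were in that table, and Aldh1l2, Cars, Eif4ebp1, Nars, Slc1a5, Slc7a5 and Wars were not. This form of the core was present in 5 of the 33, among them Gars, Iars, Nupr1 and Pycr1, against 1.084% of the 27025 genes in the table. The members were listed as genes of this response, and windows without a match may hold other forms of the element. The matches in these 4 are shown with their flanks, each 5′ to 3′ on the strand of the gene, with the core or its reverse complement in capitals:
Nupr1: aaagggccagATTGCATCAgacagggctt
Pycr1: gccctgtgtaTGATGCAATgcacaaggct
Gars: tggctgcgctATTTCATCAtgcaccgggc
Iars: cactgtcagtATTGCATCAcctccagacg
They lie at chr7:126625563-126625591 (minus strand) for Nupr1, chr11:120643833-120643861 (minus) for Pycr1, chr6:55037960-55037988 (plus) for Gars and chr13:49682126-49682154 (plus) for Iars. The cores begin 111, 103 and 31 bases before the start site in Nupr1, Pycr1 and Gars, and at base 7 after it in Iars.

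Another pair of motifs was searched in the same windows. The cAMP response element TGACGTCA, bound by factors of the CREB and ATF families, was in 1 of the 33 members, Ppp1r15a, against 2.031% of genes, and begins 12 bases before its start site (chr7:45526263-45526290, minus strand), with the motif in capitals:
Ppp1r15a: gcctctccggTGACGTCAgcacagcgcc
The interferon-type motif GAAANNGAA was in 2 of the 33, Ppp1r15a and Vldlr, against 9.761% of genes, in a data set in which all 14 interferon response genes rose. A match describes the letters of the window and no binding was measured.

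Among the 8 transporters, OPH raised Slc3a2, Slc7a1 and Slc6a9, where 8.6% of all genes tested rose. FMK raised 1, Slc38a2, which is close to the 10.4% of all genes that rose with FMK. Slc3a2 encodes the heavy chain shared by several heterodimeric amino acid exchangers. It had 268, 257 and 272 CPM with DMSO, 283, 292 and 349 CPM with FMK, and 362, 386 and 416 CPM with OPH. The 3 groups did not overlap. Slc3a2 rose by 0.55 ± 0.09 on the log2 scale with OPH (adjusted p 0.000299). FMK over DMSO was 0.21 ± 0.09 (adjusted p 0.102), which passed at 0.0372 with the block, and OPH over FMK was 0.33 ± 0.09 (adjusted p 0.0249), which was lost without FMK 1 (0.128), FMK 2 (0.122), OPH 2 (0.0796) or OPH 3 (0.105).

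Slc6a9, the glycine transporter GLYT1, had the largest fold among the called transporters, both for OPH over DMSO and for OPH over FMK. Its levels were 56.5, 46.0 and 50.2 CPM with DMSO, 54.9, 49.2 and 55.8 CPM with FMK, and 82.2, 72.6 and 79.1 CPM with OPH. OPH libraries were above all others, while FMK and DMSO overlapped. Slc6a9 rose 1.53-fold with OPH (log2 0.62 ± 0.11, adjusted p 0.000874), was 1.46-fold above FMK (0.55 ± 0.11, adjusted p 0.00498) and had a log2 fold change of 0.07 ± 0.11 with FMK. Both calls held in every alternative run. Slc6a9 overlaps the antisense gene B4galt2, which had 2614 counts in all against 3546.

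Slc7a1, the cationic amino acid transporter CAT1 that imports arginine and lysine, had 61.6, 73.1 and 86.4 CPM with DMSO, 68.6, 76.1 and 85.1 CPM with FMK, and 92.1, 108 and 111 CPM with OPH. The OPH libraries lay above the rest by a small margin. Slc7a1 rose by 0.49 ± 0.12 on the log2 scale with OPH (adjusted p 0.0107) and was above FMK by 0.44 ± 0.12 (adjusted p 0.0346). The first call was lost without DMSO 1 (0.0671) or OPH 2 (0.0507). The second was lost without DMSO 2 (0.0527), FMK 1 (0.151), FMK 2 (0.115), OPH 2 (0.132) or OPH 3 (0.118).

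Slc1a4, the neutral amino acid transporter ASCT1, had 79.8, 92.1 and 92.2 CPM with DMSO, 73.2, 85.5 and 86.8 CPM with FMK, and 102, 109 and 109 CPM with OPH. OPH did not overlap the other groups. OPH over FMK was 0.38 ± 0.10 (adjusted p 0.0249), lost without FMK 1 (0.122), FMK 2 (0.0549), OPH 2 (0.0925) or OPH 3 (0.0726). OPH over DMSO was 0.27 ± 0.10 (adjusted p 0.0727), which passed at 0.0248 with the block.

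Slc38a2, the neutral amino acid transporter SNAT2, had 356, 336 and 325 CPM with DMSO, 450.1, 413 and 376 CPM with FMK, and 396, 313 and 362 CPM with OPH. The FMK libraries lay above DMSO and overlapped OPH. Slc38a2 rose by 0.29 ± 0.09 with FMK (adjusted p 0.0360), which was lost at 0.0537 to 0.154 without any 1 of DMSO 1, DMSO 2, DMSO 3, FMK 1 and FMK 2, and at 0.169 with library size alone. With OPH its log2 fold change was 0.07 ± 0.09.

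Slc7a5, Slc7a11 and Slc1a5 passed in no comparison. Slc7a5, the light chain LAT1 that pairs with Slc3a2 to import large neutral amino acids, had 10.1, 36.2 and 38.7 CPM with DMSO, 8.80, 30.5 and 56.7 CPM with FMK, and 11.0, 45.8 and 54.1 CPM with OPH. The library numbered 1 was the lowest in every group, as it also was for the skeletal muscle markers, whose sums were 123, 79.4 and 131 CPM there. Whether the muscle content plays a part was not tested. The spread left intervals as wide as -1.99 to 2.31 for FMK over DMSO. Slc7a11, the cystine and glutamate exchanger xCT, had means of 10.2 ± 0.769, 10.4 ± 2.61 and 13.9 ± 2.07 CPM (SD, n = 3) with DMSO, FMK and OPH. Slc1a5, the glutamine transporter ASCT2, had means of 92.2 ± 24.7, 71.8 ± 3.91 and 113 ± 30.8 CPM, with the libraries numbered 3 the lowest in DMSO and OPH. From the libraries numbered 1 and 2 alone, Slc1a5 fell with FMK (log2 -0.59, adjusted p 0.00554) and was above FMK with OPH (0.87, adjusted p 0.000564).

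**Figure D3:**
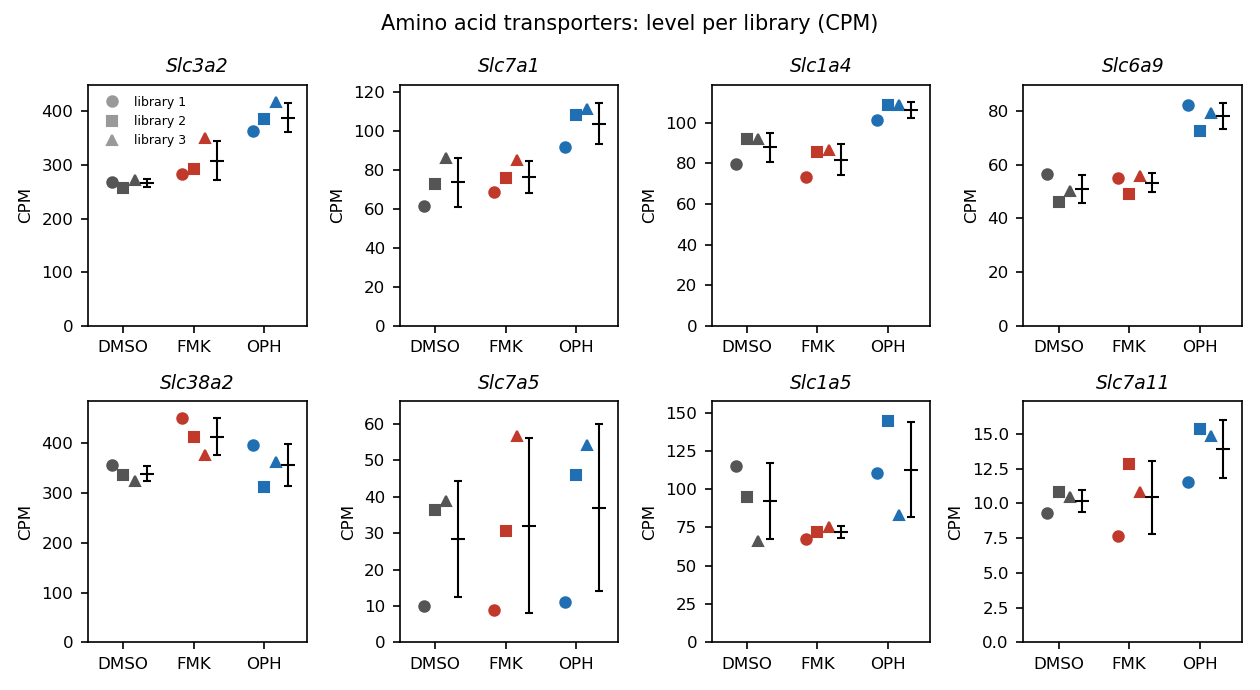
CPM of the 8 amino acid transporters in each library (circle, square and triangle for libraries 1, 2 and 3) with the group mean and SD, for DMSO, FMK and OPH. Slc6a9 is set apart in OPH at 72.6 to 82.2 CPM, while Slc7a5 is split by library number, with 8.80 to 11.0 CPM in the libraries numbered 1.

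The 11 cytosolic tRNA ligases charge tRNAs with their amino acids. With FMK 3 rose (Sars, Nars and Cars) and with OPH 6 rose (Sars, Nars, Cars, Eprs, Yars and Aars). With either inhibitor 0 fell, by edgeR, DESeq2 or limma-voom or at an unadjusted p under 0.05. By edgeR 10.4% of all genes tested rose and 10.1% fell with FMK, and 8.6% rose and 8.11% fell with OPH. No ligase had a log2 fold change below -0.07 in any comparison. All 11 were above 0 for OPH over DMSO, as were 6586 of the 13255 genes tested. The median of the 11 was 0.33 for OPH over DMSO against 0.17 for FMK over DMSO. All folds of called ligases were under 1.5.

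Sars, the ligase for serine, had 204, 200.0 and 194 CPM with DMSO, 256, 257 and 269.8 CPM with FMK, and 264, 275 and 289.5 CPM with OPH. Both treated groups were above DMSO and overlapped each other. Sars rose 1.31-fold with FMK (log2 0.39 ± 0.08, adjusted p 0.00123) and 1.39-fold with OPH (0.47 ± 0.08, adjusted p 0.000298), and OPH over FMK was 0.08 with an interval of -0.08 to 0.24. Cars, the ligase for cysteine, had 49.7, 58.9 and 56.8 CPM with DMSO, 67.1, 76.9 and 69.6 CPM with FMK, and 75.8, 70.6 and 82.9 CPM with OPH. Again both treated groups lay above DMSO. Cars rose by 0.37 ± 0.11 with FMK (adjusted p 0.0233) and by 0.47 ± 0.11 with OPH (adjusted p 0.00602). The FMK call for Cars was lost without DMSO 1 (0.110) or FMK 2 (0.102) and at 0.0939 with library size alone.

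Nars, the ligase for asparagine, had 175, 189 and 188 CPM with DMSO, 189, 226 and 261 CPM with FMK, and 224, 231 and 235 CPM with OPH. FMK 1 lay just above the highest DMSO library, and the OPH libraries were clear of it. Nars rose by 0.29 ± 0.10 with FMK (adjusted p 0.0452) and by 0.32 ± 0.10 with OPH (adjusted p 0.0327). The FMK call for Nars was lost on leaving out any 1 library except FMK 1, at 0.0563 to 0.221, and at 0.194 with library size alone, and the OPH call was lost without any 1 of the 3 DMSO or 3 OPH libraries, at 0.0547 to 0.131.

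Eprs encodes the joint ligase for glutamate and proline. It had 412, 438 and 385 CPM with DMSO, 441, 413 and 477 CPM with FMK, and 562, 625 and 581 CPM with OPH. OPH stood clear of both other groups, which overlapped. Eprs rose 1.43-fold with OPH (log2 0.52 ± 0.08, adjusted p 0.000197) and was 1.33-fold above FMK (0.41 ± 0.08, adjusted p 0.00363), the sole ligase to pass in that comparison. FMK over DMSO was 0.11 ± 0.08.

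Yars, the ligase for tyrosine, had 76.8, 72.4 and 66.9 CPM with DMSO, 78.6, 77.5 and 88.1 CPM with FMK, and 102, 99.9 and 92.2 CPM with OPH. The groups did not overlap. Yars rose with OPH by 0.45 ± 0.10 (adjusted p 0.00424), and FMK over DMSO was 0.18 ± 0.10 (adjusted p 0.247). Aars, the ligase for alanine, had 171, 168 and 204 CPM with DMSO, 165, 177 and 219 CPM with FMK, and 219, 241 and 222 CPM with OPH. The OPH libraries were above DMSO, and FMK spanned both. Aars rose with OPH by 0.33 ± 0.11 (adjusted p 0.0440), which was lost at 0.0589 to 0.167 without any 1 of DMSO 1, DMSO 2, FMK 2, OPH 1, OPH 2 and OPH 3.

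The other 5 ligases passed in no comparison. For OPH over DMSO, Gars, Wars, Tars, Mars and Iars had log2 fold changes of 0.19, 0.44, 0.16, 0.24 and 0.23. Wars, the ligase for tryptophan, which is also interferon inducible, had means of 32.9 ± 2.78, 41.6 ± 8.75 and 44.5 ± 5.96 CPM (SD, n = 3) with DMSO, FMK and OPH, and its OPH value passed at 0.0149 with the block and at 0.0364 without FMK 1. For FMK over DMSO, Wars was at 0.34 ± 0.16 (adjusted p 0.157), which passed at 0.0296 without FMK 1. OPH over FMK for Mars was 0.31 ± 0.11 (adjusted p 0.101) and for Aars 0.28 ± 0.11 (adjusted p 0.114), and these passed with the block at 0.0165 and 0.0161; Aars also passed without FMK 3 (0.0189).

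**Figure D4:**
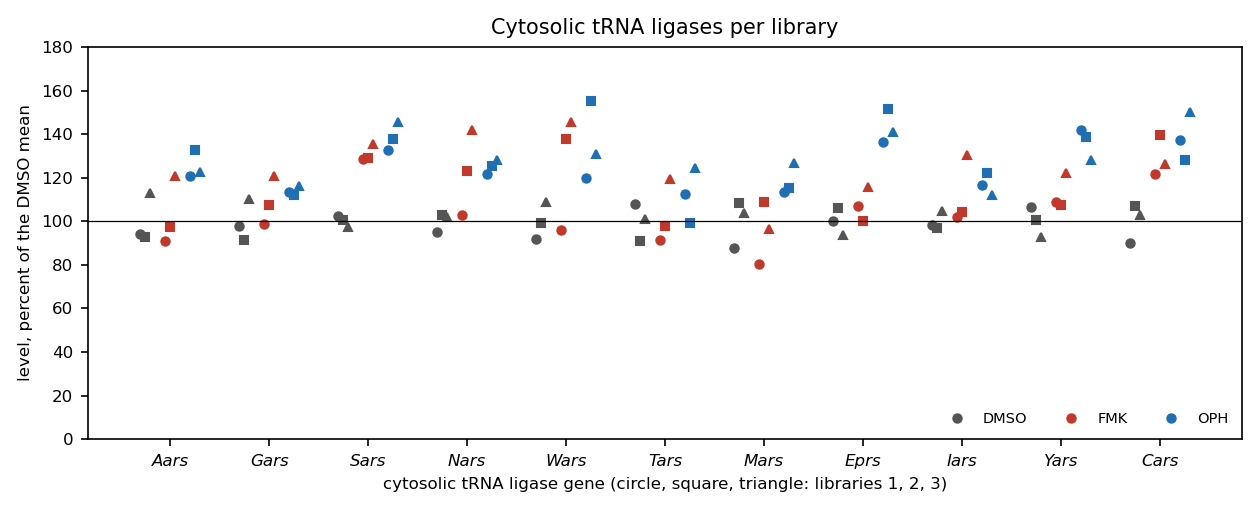
Level of the 11 cytosolic tRNA ligases in each library as a percent of the DMSO mean of the same gene (line at 100), with DMSO in grey, FMK in red and OPH in blue and the libraries by symbol. The blue points lie mostly above the grey ones, by 1.39-fold on average for Sars and 1.43-fold for Eprs. The red points overlap the grey ones for Aars, Gars, Wars, Tars, Mars, Eprs and Iars, and lie above them for Sars, Nars, Yars and Cars.

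Among the 17 mitochondrial tRNA ligases, encoded by separate genes, 0 rose and 0 fell in each of the 3 comparisons by edgeR, DESeq2 and limma-voom. By edgeR 10.4% of all genes rose and 10.1% fell with FMK, and 8.6% rose and 8.11% fell with OPH. The medians of the 17 were -0.18 for FMK, 0.05 for OPH and 0.10 for OPH over FMK. At an unadjusted p under 0.05, 0 were higher and 0 lower with FMK, 1 higher and 1 lower with OPH, and 1 higher and 0 lower for OPH over FMK. With the replicate block, Wars2 rose with OPH (log2 0.56, adjusted p 0.0465). Of the cytosolic ligases that are not members, Kars rose with both inhibitors (0.32 ± 0.09, adjusted p 0.0128, and 0.27 ± 0.09, adjusted p 0.0355), and Lars and Vars rose with OPH (0.29 ± 0.10 and 0.40 ± 0.12, adjusted p 0.0458 and 0.0237). Kars, Lars and Vars were chosen after their values were seen. The FMK call for Kars was lost without DMSO 2 (0.0713) or FMK 2 (0.0600), and its OPH call without DMSO 2, DMSO 3 or any 1 OPH library (0.0588 to 0.152). Lars was lost without any 1 of the DMSO libraries, FMK 1, OPH 2 and OPH 3 (0.0567 to 0.188), and Vars without any 1 of the DMSO libraries, OPH 2 and OPH 3 (0.0520 to 0.0908).

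No rise passed among the enzymes of serine and one-carbon metabolism. By edgeR 0 of the 6 rose with either inhibitor, also at an unadjusted p under 0.05. With so few genes this is close to the shares of all genes that rose, 10.4% with FMK and 8.6% with OPH. Intervals still allowed rises, such as -0.15 to 0.80 for Psph with OPH. Mthfd2 and Aldh1l2, which act in mitochondrial folate metabolism, fell with FMK, where 10.1% of all genes fell. Mthfd2 had 153, 164 and 134 CPM with DMSO, 96.0, 108 and 127 CPM with FMK, and 145, 142 and 156 CPM with OPH. FMK lay below both other groups, which overlapped. Mthfd2 fell by 0.44 ± 0.11 on the log2 scale with FMK (adjusted p 0.00603) and was higher with OPH than with FMK by 0.42 ± 0.11 (adjusted p 0.0203), whereas OPH over DMSO was -0.03 ± 0.11. The difference between inhibitors was lost without FMK 1 (0.111), FMK 2 (0.0824), OPH 2 (0.0515) or OPH 3 (0.0736).

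Aldh1l2, which oxidises formyl-tetrahydrofolate, had 99.5, 103 and 113 CPM with DMSO, 84.4, 70.2 and 88.5 CPM with FMK, and 108, 104 and 112 CPM with OPH. Again FMK alone was low. Aldh1l2 fell by 0.38 ± 0.10 with FMK (adjusted p 0.0130) and was above FMK by 0.42 ± 0.10 with OPH (adjusted p 0.0158). The first call was lost without DMSO 3 (0.0551) or FMK 2 (0.0952), and the second without FMK 2 (0.0949) or OPH 3 (0.0576). In the same FMK libraries, 8 of 10 cartilage and 6 of 8 adipocyte markers fell, and the part of that shift in the 2 genes was not tested.

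Phgdh, Psat1 and Psph, the 3 enzymes of serine synthesis, and Shmt2, which feeds serine carbon into folate, passed in no comparison. Their log2 fold changes were -0.30, 0.20, 0.14 and 0.07 with FMK and -0.01, -0.06, 0.32 and 0.09 with OPH. Phgdh had means of 29.4 ± 1.59, 23.9 ± 4.55 and 29.3 ± 6.34 CPM (SD, n = 3) with DMSO, FMK and OPH. Psat1 was at 129.8 ± 4.64, 149 ± 23.7 and 124 ± 9.73 CPM, and OPH over FMK for it was -0.26 ± 0.11 (adjusted p 0.138), which passed at 0.0381 with the block. Psph and Shmt2 overlap the antisense genes Cct6a and Ndufa4l2, and Aldh1l2 overlaps D10Wsu102e, so their counts are less certain.

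Asparagine and proline synthesis gave 1 changed gene of 3, where 10.1% of all genes tested fell with FMK and 8.11% with OPH. Pycr1, the last enzyme of proline synthesis, had 99.5, 94.0 and 101 CPM with DMSO, 56.7, 52.6 and 60.4 CPM with FMK, and 57.1, 53.1 and 66.6 CPM with OPH. All 6 treated libraries lay below all 3 DMSO libraries. Pycr1 fell 1.74-fold with FMK (log2 -0.80 ± 0.11, adjusted p 3.16e-05) and 1.67-fold with OPH (-0.74 ± 0.11, adjusted p 0.000111), and OPH over FMK was 0.06 with an interval of -0.17 to 0.29. Proline is abundant in collagen, and the cartilage marker list fell in the same libraries, by a median log2 fold change of -1.62 with FMK and -1.17 with OPH; the part of this in the Pycr1 change was not tested. Aldh18a1, the first enzyme of that pathway, was at -0.13 ± 0.13 with FMK and -0.31 ± 0.13 with OPH (adjusted p 0.124), and with OPH it passed without OPH 3 (0.0302). Asns, asparagine synthetase and a classical ATF4 target, had 150.1, 139 and 168 CPM with DMSO, 149, 164 and 221 CPM with FMK, and 164, 163 and 187 CPM with OPH. The groups of Asns overlapped, and its log2 fold changes were 0.22 ± 0.13 with FMK (interval -0.06 to 0.50) and 0.17 ± 0.13 with OPH (interval -0.11 to 0.45).

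Of the 18 further enzymes of serine, one-carbon, proline and glutamine metabolism, 16 were tested. Among all genes tested, 10.4% rose and 10.1% fell with FMK, and 8.6% rose and 8.11% fell with OPH. By edgeR 0 of the 16 rose and 2 fell with FMK, 0 rose and 2 fell with OPH, and 0 passed between the inhibitors. At an unadjusted p under 0.05, 1 was higher and 6 lower with FMK, 0 higher and 4 lower with OPH, and 2 higher and 0 lower for OPH over FMK. Gcat, which breaks down threonine to glycine, fell with FMK from 21.7, 15.3 and 17.5 CPM to 8.80, 6.50 and 10.8 CPM (log2 -1.07 ± 0.24, adjusted p 0.00367). Glul, glutamine synthetase, had 138, 145 and 77.9 CPM with DMSO, 57.0, 60.0 and 54.5 CPM with FMK, and 81.0, 95.1 and 56.8 CPM with OPH. The FMK libraries of Glul were the lowest, and the library numbered 3 was the lowest in each group, as for the adipocyte markers. Glul fell by 1.07 ± 0.27 with FMK (adjusted p 0.0291), which was lost without DMSO 1 (0.0848), DMSO 2 (0.0725), FMK 1 (0.0933), FMK 2 (0.0847), FMK 3 (0.0967) or OPH 1 (0.0510). With OPH it was at -0.63 ± 0.26 (adjusted p 0.169), which passed at 0.000301 with the block. Oat and Glud1, which convert ornithine and glutamate, fell with OPH by 0.43 ± 0.10 (adjusted p 0.00678) and 0.31 ± 0.09 (adjusted p 0.0270). The Oat call was lost without OPH 2 (0.0536), and the Glud1 call without DMSO 1, DMSO 2 or any 1 OPH library (0.0536 to 0.150). With the block, 5 of the 16 fell with FMK, the added ones being Oat, Aldh4a1 and Mthfd1 (adjusted p 0.0108, 0.00941 and 0.0352), and 3 fell with OPH. Between the inhibitors 3 were then higher with OPH and 1 lower. The block also called more genes in all: 1773 of 13255 fell with FMK and 1503 with OPH. For OPH over FMK, 7.78% were then above and 8.36% below.

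Of the 4 other ATF4 targets, Chac1 and Stc2 fell with FMK, where 10.1% of all genes tested fell. With OPH 0 of the 4 changed by edgeR, and 1 was higher at an unadjusted p under 0.05. With so few genes, 0 is close to the shares of all genes with OPH, 8.6% higher and 8.11% lower. Chac1 encodes an enzyme that degrades glutathione and is among the most responsive targets of ATF4 and CHOP. It had 73.0, 70.0 and 78.3 CPM with DMSO, 46.3, 32.2 and 64.8 CPM with FMK, and 69.0, 79.0 and 81.3 CPM with OPH. FMK lay below DMSO with a wide spread, and OPH overlapped DMSO. Chac1 fell by 0.63 ± 0.20 on the log2 scale with FMK (adjusted p 0.0424), while Atf3 and Ddit3 rose in the same libraries. That call was lost on leaving out any 1 library except FMK 3, at 0.0562 to 0.143. OPH over FMK for Chac1 was 0.68 ± 0.20 with an interval of 0.25 to 1.12 and an adjusted p of 0.0539, which passed at 0.00149 with the block and at 0.000712 without FMK 3.

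Stc2, a secreted glycoprotein induced by stress, had 31.2, 25.6 and 33.6 CPM with DMSO, 19.1, 20.3 and 23.7 CPM with FMK, and 30.9, 27.2 and 26.0 CPM with OPH. The FMK libraries were the lowest 3 of 9. Stc2 fell by 0.52 ± 0.16 with FMK (adjusted p 0.0235), lost without DMSO 1 (0.0766), DMSO 3 (0.102), FMK 1 (0.0963) or FMK 2 (0.0840). Vldlr, a lipoprotein receptor, and Eif4ebp1, a brake on cap-dependent translation, were at 0.21 ± 0.12 and 0.05 ± 0.10 with FMK and at 0.26 ± 0.11 and 0.08 ± 0.10 with OPH, and passed in no comparison.

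The compounds were compared directly at the same dose and time. Z-VAD-FMK carries a fluoromethyl ketone as its reactive group and a benzyloxycarbonyl cap, and Q-VD-OPH a difluorophenoxymethyl ketone and a quinoline cap. This made 1 pair of compounds, compared over 13255 genes with p-values adjusted over all of them. OPH was above FMK for 10 members (Atf4, Ddit3, Trib3, Mthfd2, Aldh1l2, Slc3a2, Slc7a1, Slc1a4, Slc6a9 and Eprs) and below it for Nupr1. The 10 differed in how they stood to DMSO. Mthfd2 and Aldh1l2 fell with FMK, and OPH was near DMSO. Atf4, Trib3, Slc3a2, Slc7a1, Slc6a9 and Eprs rose with OPH and did not pass with FMK, Ddit3 rose with both, and Slc1a4 did not pass against DMSO with either compound. In the same comparison 10 of 12 macrophage markers passed as higher with OPH. Of the 8 adipocyte markers 2 passed, but for all 8 every OPH library lay above every FMK library. All 8 were also higher at an unadjusted p under 0.05 by edgeR, with a median of 4.87 on the log2 scale. Of the 14 interferon response genes 0 passed, and their log2 values ran from -0.49 to -0.06. The part of these shifts in the members' differences was not tested. For 29 members the difference did not pass, which does not show that the compounds act alike: the interval was -0.05 to 0.66 for Atf3, -0.40 to 0.01 for Cebpb, -0.18 to 0.24 for Nars and -0.13 to 0.33 for Cars. Leaving out FMK 1, FMK 2, OPH 2 or OPH 3 lowered the 10 members above FMK to 5, 6, 5 and 5. Calls over all genes in either direction fell from 1175 to 712, 709, 571 and 840 in the same runs.

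Beyond the members, 29 of 32 other ATF4-linked genes could be tested. Of these, 6 rose and 3 fell with FMK, 9 rose and 0 fell with OPH, and 9 were higher and 1 lower with OPH than with FMK. Among all genes tested, 10.4% rose and 10.1% fell with FMK, and 8.6% rose and 8.11% fell with OPH. Those above and below FMK with OPH were 4.2% and 4.66%. The falls with FMK thus came at about the share of all genes. Gdf15, a secreted stress cytokine, had 14.9, 12.6 and 15.2 CPM with DMSO, 27.4, 36.3 and 29.5 CPM with FMK, and 78.4, 109 and 68.0 CPM with OPH. The 3 groups of Gdf15 did not overlap. It rose by 1.13 ± 0.18 with FMK (adjusted p 0.000289) and by 2.58 ± 0.18 with OPH (adjusted p 3.41e-08), and OPH was above FMK by 1.45 ± 0.17 (adjusted p 5.65e-05). Bbc3, which encodes the cell death protein PUMA, rose with FMK from 42.7, 42.8 and 35.8 CPM to 62.3, 66.0 and 65.3 CPM and with OPH to 118, 118 and 99.3 CPM. Its log2 fold changes were 0.68 ± 0.11 (adjusted p 0.000254) and 1.47 ± 0.11 (adjusted p 3.90e-08), with OPH above FMK by 0.79 ± 0.11 (adjusted p 0.000177). Gdf15 and Bbc3 are also targets of p53. Sesn2, a sensor of leucine, followed the pattern of Atf4: it had 39.6, 46.2 and 45.4 CPM with DMSO, 46.9, 39.0 and 48.3 CPM with FMK, and 74.1, 70.9 and 74.0 CPM with OPH. It rose by 0.74 ± 0.12 with OPH (adjusted p 0.000226), was above FMK by 0.71 ± 0.12 (adjusted p 0.00102) and was at 0.03 ± 0.12 with FMK.

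In this list 1 gene was lower with OPH than with FMK. That gene, Ero1l, an oxidase of the endoplasmic reticulum that is a target of CHOP and of hypoxia, had 30.7, 25.4 and 27.6 CPM with DMSO, 71.5, 75.0 and 67.3 CPM with FMK, and 39.4, 42.8 and 43.3 CPM with OPH. The groups did not overlap, and FMK was the highest. Ero1l rose by 1.35 ± 0.12 with FMK (adjusted p 1.99e-07) and by 0.58 ± 0.12 with OPH (adjusted p 0.00261), with OPH below FMK by 0.77 on the log2 scale (-0.77 ± 0.12, adjusted p 0.000522). Ddit4, an inhibitor of mTORC1, rose by 0.88 ± 0.12 with FMK (adjusted p 3.22e-05) and by 0.65 ± 0.12 with OPH (adjusted p 0.000900). The 3 that fell with FMK, chosen after their values were seen because they are few, were Herpud1, Jdp2 and Fgf21, by 0.45 ± 0.09, 0.48 ± 0.11 and 1.04 ± 0.34 on the log2 scale (adjusted p 0.00188, 0.00468 and 0.0372). The Fgf21 call was lost without DMSO 1 (0.192), DMSO 3 (0.0555), FMK 1 (0.0907), FMK 2 (0.140) or OPH 2 (0.0504), and its libraries held at most 9.47 CPM. Slc38a1, an amino acid transporter, passed with the block for OPH over DMSO (0.55, adjusted p 0.000315), where without it the gene was at 0.58 ± 0.59, and its level ran from 31.8 to 78.9 CPM among the DMSO libraries alone.

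The list of IRE1 and ATF6 targets, from the other arms of the endoplasmic reticulum stress response, held 12 tested genes. By edgeR 0 rose and 4 fell with FMK, and 0 rose and 7 fell with OPH; 0 were higher in either comparison at an unadjusted p under 0.05 or by DESeq2 or limma-voom. For OPH over FMK 1 was higher and 1 lower. Among all genes tested, 10.4% rose and 10.1% fell with FMK, and 8.6% rose and 8.11% fell with OPH. Those above and below FMK with OPH were 4.2% and 4.66%. Hspa5, the chaperone BiP, had 1552, 1521 and 1486 CPM with DMSO, 1204, 1206 and 1363 CPM with FMK, and 1228, 1303 and 1267 CPM with OPH. All treated libraries lay below all DMSO libraries. Hspa5 fell by 0.27 ± 0.07 with FMK (adjusted p 0.00832) and by 0.26 ± 0.07 with OPH (adjusted p 0.0129), calls that were lost without DMSO 1 (0.0522 and 0.0698), for FMK also without FMK 1 (0.0546) or FMK 2 (0.0639), and for OPH also without OPH 1 (0.0623). Sdf2l1, a cofactor of BiP, went from 36.3, 37.3 and 37.9 CPM with DMSO to 23.8, 15.5 and 17.8 CPM with FMK and 16.1, 15.7 and 16.9 CPM with OPH. Sdf2l1 fell by 0.97 ± 0.16 (adjusted p 0.000329) and 1.19 ± 0.16 (adjusted p 6.38e-05) on the log2 scale. Manf, a secreted folding factor, fell by 0.40 ± 0.12 with FMK (adjusted p 0.0338) and by 0.56 ± 0.12 with OPH (adjusted p 0.00650), and its FMK call was lost without DMSO 1 (0.0883), DMSO 3 (0.129), FMK 1 (0.144), FMK 2 (0.155) or OPH 2 (0.0532). Xbp1, the factor activated by IRE1, fell with OPH by 0.36 ± 0.10 (adjusted p 0.0144), which was lost without DMSO 1 (0.0700), DMSO 3 (0.0710) or OPH 1 (0.0502), and without OPH 2, where it lay on the threshold. Dnajb9 separated the inhibitors: it fell by 0.40 ± 0.13 with FMK (adjusted p 0.0403), was at 0.10 ± 0.13 with OPH and was above FMK by 0.50 ± 0.13 (adjusted p 0.0234). The FMK call for Dnajb9 was lost without DMSO 1, DMSO 3, FMK 2, FMK 3 or OPH 2 (0.0508 to 0.138), and its difference between the inhibitors without FMK 2, FMK 3, OPH 2 or OPH 3 (0.0527 to 0.0891). The secretory cartilage markers fell in the same libraries, and their part in the chaperone levels was not tested.

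**Figure D5:**
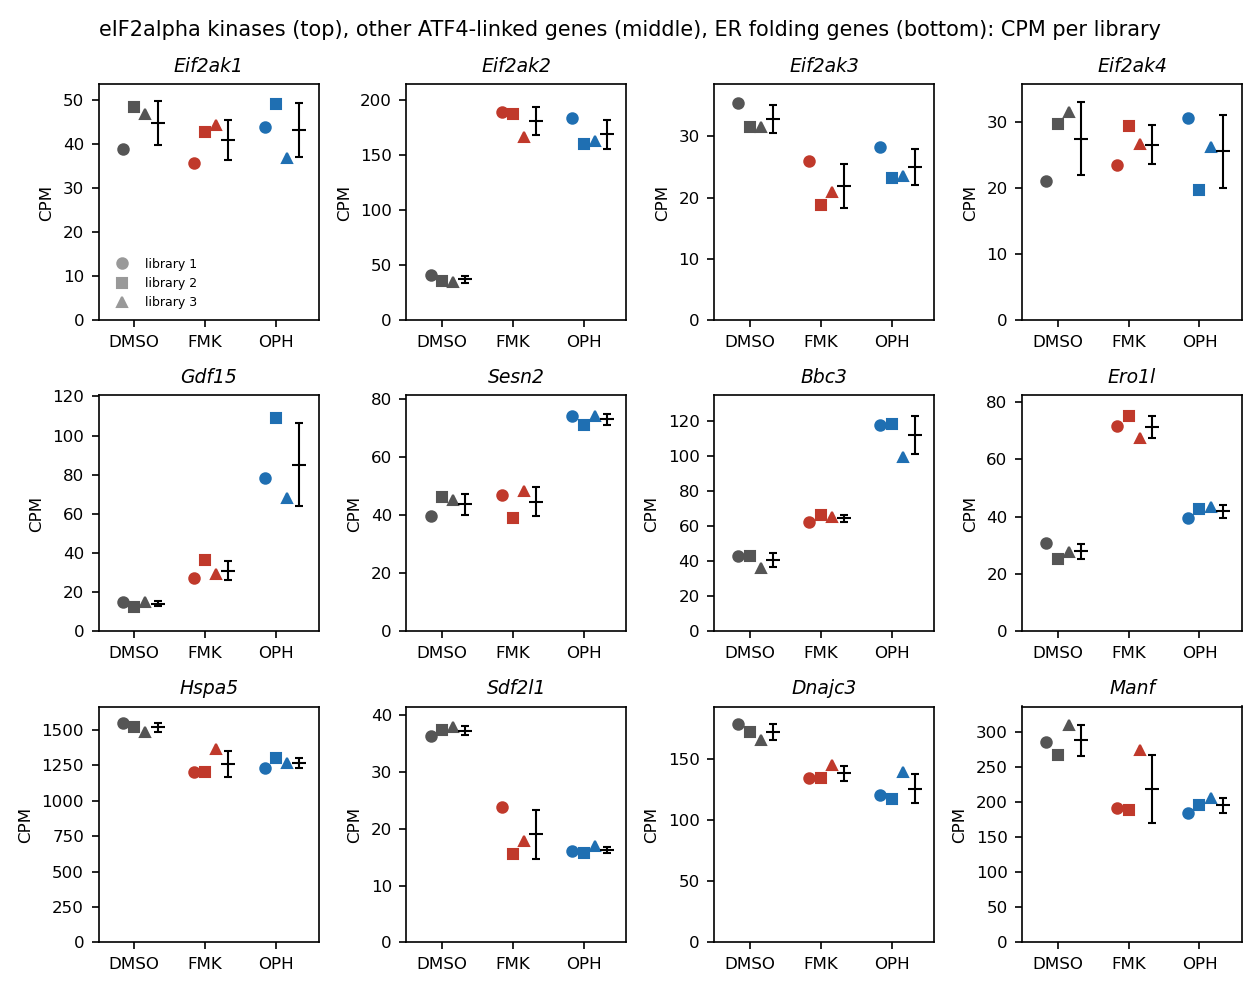
CPM per library, with the group mean and SD, of the 4 eIF2alpha kinases (top), 4 other ATF4-linked genes (middle) and 4 genes of endoplasmic reticulum folding (bottom) for DMSO, FMK and OPH. Eif2ak2 is high in both treated groups, Gdf15, Sesn2 and Bbc3 are highest with OPH, Ero1l is highest with FMK at 67.3 to 75.0 CPM, and the 4 genes of the bottom row lie lower with OPH than with DMSO.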

How the data were processed

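The data are 3′ end RNA-seq libraries from 9 cultures, 3 each with DMSO, FMK and OPH. The authors deposited whole-number counts per gene and library, which were used as deposited. The submitters' processing notes name the mm10 build and, with no version, the tools cutadapt, STAR, FastQC, MultiQC and DESeq2. How reads were counted (program, gene models, strand, multi-mapping reads) is not given in the sources used here, so counts of overlapping, antisense or near-identical genes are uncertain. 99 spike-in rows with 1 count in all were left out. Library columns were matched to samples by name: 2 equal a sample title and 7 add a letter to it.

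Genes were kept with filterByExpr (13255 genes, at least 99.7% of the counts of each library), scaled with TMM and tested with edgeR 4.0.16 in R 4.3.3 (robust quasi-likelihood fit, 1 coefficient per group over all 9 libraries), with Benjamini-Hochberg adjustment over all genes and a threshold of 0.05. The model was also run on simulated counts, which held no effect shared by libraries of the same number. That run cannot show how the unblocked fit behaves where such an effect is present. SE and 95% intervals of log2 fold changes come from this model. An exact permutation test of 3 against 3 cannot go below a p of 0.1 and was not used. No pair of libraries in a group was a copy: their counts differed beyond sampling noise, with a chi-square over its degrees of freedom of 5.67 to 14.2.

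Same-numbered libraries of different groups deviated together from their group means in all 9 pairs (correlations 0.102 to 0.344). The labels do not state a pairing, so the main fit, its SE and its calls use none. A fit with the number as a block was run beside the unblocked one. With the block FMK raised 11 members and lowered 5, where 1778 genes rose and 1773 fell in all. OPH then raised 19 members and lowered 1, where 1536 genes rose and 1503 fell. The alternatives were other normalizations, filters, DESeq2 1.42.0, limma-voom 3.58.1, the 2 groups compared alone, the libraries numbered 1 and 2, and leaving out each library.

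The 40 members and the further gene lists were chosen with earlier results of these data known. Named genes are all members, those past the threshold with values per library, the 4 eIF2alpha kinases, and up to 4 genes with the smallest p in each further list. Positions of genes are from GENCODE M21 (GRCm38) and promoter sequences from RefSeq (GRCm38.p6). 1 promoter match is not reported here.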

Additional observations from a re-analysis of the deposited data

How the results depend on the processing

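Of 120 member results (40 genes in 3 comparisons), 43 passed the threshold, and 26 of these passed under all 18 alternatives. None of the 59 results that passed in any fit changed sign. Of the 61 that passed in none, 30 changed sign in an alternative. The members called lower with FMK ranged from 2 to 5 on leaving out 1 library, against 5. All genes called lower with FMK then ranged from 938 to 1341, against 1341. Those called lower with OPH were 2 from the libraries numbered 1 and 2 alone and ranged from 1 to 2 on leaving out 1 library, against 1. For OPH over FMK, the members called higher were 17 with library size alone, 16 with no low-count filter and 5 to 12 on leaving out 1 library, against 10. Over all genes, 1103 were higher with library size alone, 820 with no low-count filter and 265 to 668 on leaving out 1 library, against 557. The members called lower were 0 with library size alone, 2 with the replicate block and 0 to 1 on leaving out 1 library, against 1. The count over all genes for that comparison was 2139 with the replicate block and 571 to 1386 on leaving out 1 library (712 without FMK 1, 709 without FMK 2, 571 without OPH 2), against 1175. The cause of these shifts was not tested. The replicate block ended no member's call and added 10, each given above, and it changed no other member's call. DESeq2 ended 2 member calls and added 3, and limma-voom ended 5 and added 1. The 2 groups compared alone ended 3 and added 2, and RLE normalization ended 1 and added 0. Which members' calls these were is not listed above. Among the further genes, Slc38a1 for OPH over FMK (0.32) ranged from -0.21 without OPH 3 (adjusted p 0.897) to 0.88 without FMK 3.

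With 3 cultures a group, changes under 1.5-fold were often not resolved, and 17 of the 43 calls ended under at least 1 alternative. Counts are of transcript ends and say nothing of ATF4 protein, translation or eIF2alpha phosphorylation. Cell makeup shifted with treatment and with library number, and the levels are averages over all cells of a culture.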
